A study of Aspergillus glaucus with 6 samples.

Results

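The comparison described here sets the transcripts of Aspergillus glaucus CCHA mycelium in 1 M NaCl against those of mycelium in 0 M NaCl, both after 84 h of treatment. Both were chosen by their treatment labels, and they are 2 of the 6 libraries of the study. The other 4 libraries are 1 M NaCl for 36 h, 3 M NaCl for 36 h, 3 M NaCl for 84 h and 4 M NaCl for 84 h. All 6 come from the same strain, CCHA, and are of total RNA from filtered and frozen mycelium. Each condition has 1 library, so no difference could be set against the spread between cultures, and no p-value is given. Of 8441 gene IDs listed in the files, 6429 were compared. These reached 10 CPM (counts scaled to library size by TMM factors) in at least 1 of the 1 M and 0 M libraries.

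Aspergillus glaucus is a mould known from dry, sugared and salted substrates. NaCl in the medium acts on a fungal cell both by withdrawing water and by loading it with sodium. In the aspergilli that have been studied most, such as Aspergillus nidulans, osmotic stress is relayed by a mitogen-activated protein kinase cascade, glycerol and other polyols are accumulated as compatible solutes, and sodium is pumped out of the cytosol or into the vacuole. Which of the gene IDs below belong to these systems is not known here, because the files do not pair IDs with gene names. None (0) of the 8441 IDs matched a table of 11428 RefSeq genes from another strain of the species. Genes are therefore described by ID, by level and by group, with no function given to any of them, and no sequence is shown. Genes that mark conidia or fruiting bodies could not be looked up either, and a different mix of cell types in the mycelium cannot be told apart from a different level per cell.

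The 1 M library held 18110271 counts over 8182 genes with a read, and the 0 M library 16371771 counts over 8239 genes. The other 4 held between 16987222 and 18376857 counts. The number of genes at 10 CPM was 6072 for 1 M and 6116 for 0 M. It was lower in 3 M at 36 h (5710) and in 4 M at 84 h (5681), where the 100 most abundant genes took 31.9% and 29.0% of counts, against 24.0% to 26.6% in the remaining libraries. Those 2 libraries thus stood apart, and the libraries in 3 M at 36 h and at 84 h differed from each other although they share a salt concentration. Whether the labels of the 3 M libraries were exchanged was not tested; an exchange would turn the comparison of times in 3 M round and alter the 3 M value in each salt series. Some counts that rest on the 3 M libraries are given below also without them. Others, such as those of salt order at 84 h and of the highest and lowest library, are given only with them.

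In 1 M NaCl, 293 genes were at least 4-fold higher than in 0 M, which is 4.56% of the genes compared, and 182 were at least 4-fold lower, which is 2.83%. At 2-fold the lower side was in slight excess, with 767 higher and 784 lower genes, and at 4-fold and more the higher side was: at 8-fold there were 109 higher and 61 lower genes, and at 16-fold 36 higher and 25 lower. At 64-fold 4 genes were higher and 1 lower. Most genes differed little, with 75.9% of those compared within 2-fold and a median log2 fold change (1 M minus 0 M) of -0.03. The interquartile range over all genes was -0.56 to 0.48 on this log2 scale. Scaling by total counts in place of TMM factors moved the median of all genes by -0.11 and gave 257 higher and 215 lower genes.

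**Figure D1:**
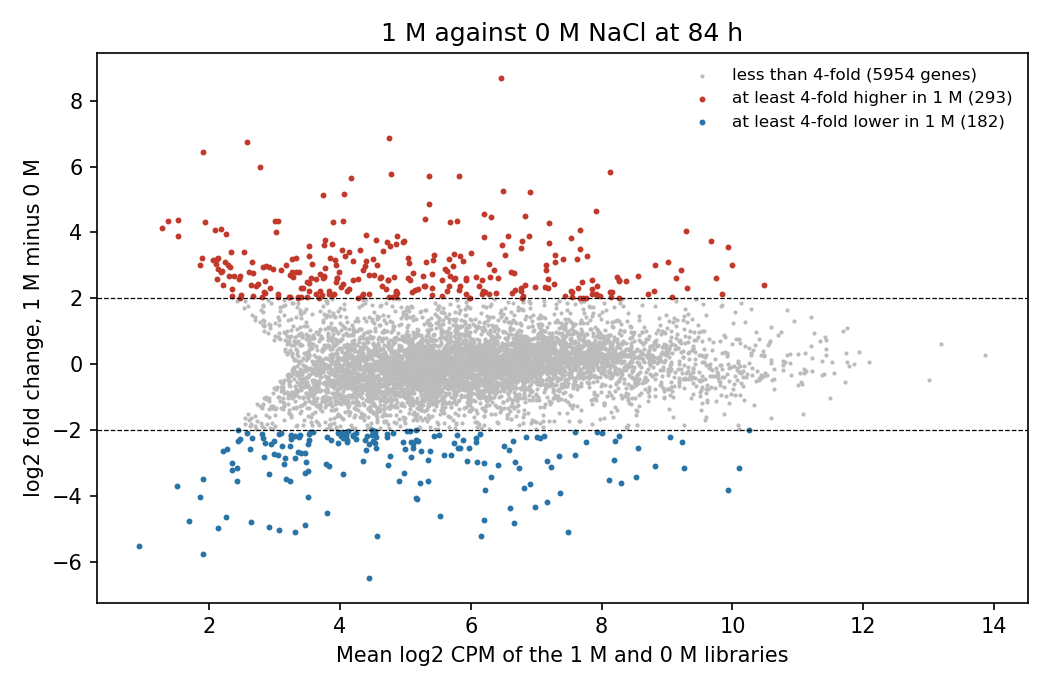
Log2 fold change (1 M minus 0 M at 84 h, vertical axis) against the mean log2 CPM of the 2 libraries (horizontal axis), 1 point per gene compared. The 293 genes at least 4-fold higher (red) and the 182 at least 4-fold lower (blue) lie outside the dashed lines at 2 and -2, and reach from the low to the high end of abundance.

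The 4-fold genes were found at all levels of expression. Of the 213 genes with a mean below 10 CPM over the 2 libraries, which were compared only because 1 library reached 10 CPM, 40 (18.8%) were 4-fold higher and 20 (9.39%) 4-fold lower. Between 10 and 50 CPM, where the largest numbers lay, they were 110 (4.21%) and 89 (3.41%) of 2610 genes. Of the 141 genes with a mean of at least 1000 CPM, 8 (5.67%) were 4-fold higher and 4 (2.84%) 4-fold lower. Between 200 and 1000 CPM the counts were 56 (5.79%) and 27 (2.79%) of 967 genes. Between 50 and 200 CPM they were 79 (3.16%) and 42 (1.68%) of 2498 genes. The exact 95% counting interval (Clopper-Pearson) of the ratio lay beyond 2-fold for all 293 higher and all 182 lower genes. This follows from the rule, because at these depths 10 CPM and a 4-fold ratio leave too many counts for an interval to reach 2-fold. The interval lay beyond 4-fold for 238 of the higher and 139 of the lower genes. Such intervals hold counting error alone, and since no molecular identifiers are reported, copies of 1 molecule may have been counted more than once. No 4-fold gene was without reads in either library; the smallest count was 5 among the higher genes in 0 M and 3 among the lower genes in 1 M.

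Together, the higher genes held 7.71% of all counts in 1 M, against 1.13% in 0 M. Their median level was 81.7 CPM in 1 M and 9.77 CPM in 0 M, and 148 of the 293 were below 10 CPM in 0 M. For the lower genes the share was 0.544% in 1 M, against 4.40% in 0 M. Their median level was 9.27 CPM in 1 M and 56.8 CPM in 0 M, and 95 of the 182 were below 10 CPM in 1 M. The 10 most abundant members held 31.3% of the counts of the higher genes in 1 M, and the 10 most abundant of the lower genes held 44.2% of that group's counts in 0 M. The widest exact 95% interval of any of these shares spanned 0.0246 percentage points. These intervals too hold counting error alone, and no spread between cultures. They take the genes as fixed, although the genes were chosen on the same 1 M and 0 M libraries.

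**Figure D2:**
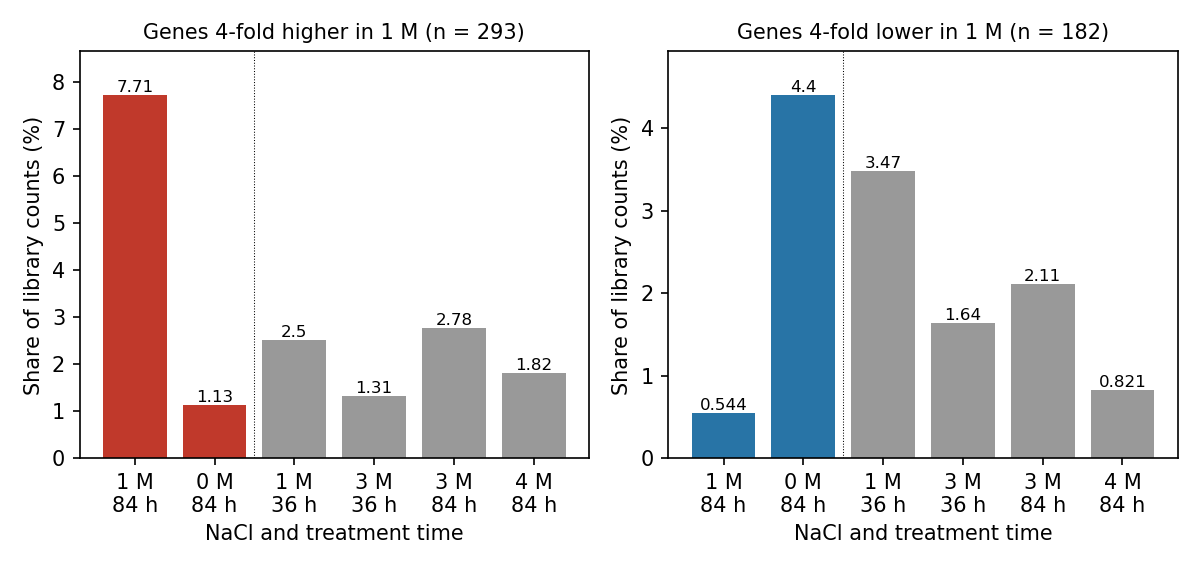
Share of all counts (%, bars from 0) taken by the 293 genes higher in 1 M (left panel) and the 182 genes lower in 1 M (right panel), in the 1 M and 0 M libraries at 84 h (coloured) and in the other 4 libraries (grey). The higher genes took 7.71% in 1 M at 84 h and at most 2.78% in any other library, while the lower genes took 0.544% in 1 M at 84 h and at least 0.821% in every other library.

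In all, 22.4% of the counts would have to be assigned to another gene to turn one library into the other (the sum over genes of the absolute difference in share, divided by 2). The 4-fold genes, 7.39% of the genes compared, made up 23.3% of this difference, 14.7% from the higher and 8.58% from the lower genes. Genes within 2-fold of each other made up 47.0% of it. The 323 genes with the largest differences in share accounted for 50% of it, and among these were 63 of the 4-fold higher and 33 of the 4-fold lower genes. Of the 100 most abundant genes of each library, 59 were shared. Among the 100 of the 1 M library 13 were 4-fold higher, and among the 100 of the 0 M library 6 were 4-fold lower.

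The gene furthest above 0 M was AG01985.1, which reached 1797 CPM in 1 M, against 4.22 CPM in 0 M (31974 and 73 counts). Its log2 fold change was 8.70 (95% counting interval 8.40 to 9.09). In the other libraries it stood at 8.22 CPM (1 M, 36 h), 4.32 CPM (3 M, 36 h), 14.0 CPM (3 M, 84 h) and 5.12 CPM (4 M, 84 h). It was therefore abundant in 1 M at 84 h and weak in each of the other 5 libraries. AG07765.1 had the same pattern, with 291 CPM in 1 M and 2.37 CPM in 0 M (log2 fold change 6.88, interval 6.50 to 7.42). Elsewhere it lay between 0.370 CPM in 3 M at 36 h and 3.07 CPM in 1 M at 36 h.

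The next 3 genes by fold were weaker. AG07012.1 had 62.5 CPM in 1 M (1112 counts), against 0.462 CPM in 0 M (8 counts), and at most 3.28 CPM in the other 4 libraries. AG00213.1 had 34.8 CPM in 1 M (619 counts), against 0.289 CPM in 0 M (5 counts), and between 0.309 and 1.40 CPM elsewhere. AG03477.1 had 54.7 CPM in 1 M (973 counts), against 0.751 CPM in 0 M (13 counts), and between 0.779 and 3.73 CPM elsewhere. Their log2 fold changes were 6.76 (interval 6.09 to 8.29), 6.44 (5.68 to 8.54) and 5.99 (5.40 to 7.10). In all 5 genes with the largest fold, no other library came near the level in 1 M at 84 h.

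By the difference in CPM, the first of the higher genes was AG04739.1, with 3368 CPM in 1 M and 286 CPM in 0 M (log2 fold change 3.56, interval 3.52 to 3.60). It stood at 805 CPM in 3 M at 84 h and between 83.9 and 151 CPM in the remaining 3 libraries. AG07742.1 had 2974 CPM in 1 M and 222 CPM in 0 M. This gene was split among the other libraries, at 953 CPM in 1 M at 36 h and 1069 CPM in 3 M at 84 h, but 32.2 CPM in 3 M at 36 h and 30.4 CPM in 4 M at 84 h. AG00016.1 had 3278 CPM in 1 M and 620 CPM in 0 M, with 587 and 628 CPM in 1 M and 3 M at 36 h and 1066 and 1054 CPM in 3 M and 4 M at 84 h. It was at 587 CPM or more in every library, so that its log2 fold change of 2.40 (interval 2.37 to 2.43) was a difference between abundant levels. AG06876.1 had 2882 CPM in 1 M and 359 CPM in 0 M, and between 409 and 740 CPM elsewhere. AG07790.1 had 2548 CPM in 1 M and 153 CPM in 0 M (log2 fold change 4.05, interval 4.00 to 4.11). Its levels elsewhere were all below that in 0 M, from 5.74 CPM in 3 M at 36 h to 81.7 CPM in 3 M at 84 h.

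The ID after a higher gene was itself higher more often than compared IDs in general. Whether ID numbers follow the order of genes on the genome is not stated in the sources used here. Of the 196 higher genes whose next ID number was among the genes compared, 25 (12.8%) were followed by another higher gene, against 4.08% of all such compared IDs. In 22 runs of at least 2 consecutive IDs there were 47 of the 293 higher genes, and 7 genes lay in 2 runs of at least 3. The longest run was AG04733.1 to AG04736.1, with 973, 795, 360 and 2125 CPM in 1 M and 206, 137, 66.5 and 348 CPM in 0 M. Their log2 fold changes lay within a narrow range, from 2.24 to 2.61. In 3 M at 84 h the 4 genes were at intermediate levels of 547, 287, 178 and 759 CPM. In 4 M at 84 h they were at 71.5, 60.0, 3.40 and 17.1 CPM. They stood at 56.5, 41.8, 1.91 and 7.78 CPM in 3 M at 36 h. All 4 were below their 0 M levels also in 1 M at 36 h, at 126 CPM or less. AG04739.1, the gene with the largest difference in CPM, lies 3 ID numbers after this run, and AG04737.1 between them was lower in 1 M (119 CPM) than in 0 M (256 CPM). AG04737.1 was picked for its number after the values of the run had been seen.

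The gene furthest below 0 M was AG04449.1, with 2.19 CPM in 1 M and 207 CPM in 0 M (39 and 3579 counts). Its log2 fold change was -6.49 (interval -7.05 to -6.11). It stood at 70.7 CPM in 1 M at 36 h, 187 CPM in 3 M at 36 h, 67.0 CPM in 3 M at 84 h and 89.6 CPM in 4 M at 84 h. The 1 M library at 84 h was thus the exception for this gene, at 2.19 CPM where no other was below 67.0 CPM. AG04545.1 was alike but weaker, with 0.393 CPM in 1 M, against 27.5 CPM in 0 M, with 4.09 to 22.0 CPM elsewhere.

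The other 3 genes with the largest negative fold had low levels in further libraries. AG02096.1 had 3 counts (0.169 CPM) in 1 M and 223 counts (12.9 CPM) in 0 M, a log2 fold change of -5.53 with an interval of -8.55 to -4.69. It had no read in 3 M at 36 h, where 3 counts correspond to 0.185 CPM, and 17 counts or fewer in the remaining libraries. AG04718.1 had 11.5 CPM in 1 M, against 436 CPM in 0 M, and elsewhere at between 5.23 CPM in 4 M at 84 h and 79.7 CPM in 1 M at 36 h. AG01749.1 had 3.77 CPM in 1 M, against 145 CPM in 0 M. For this gene the 36 h library in the same salt was the highest of all, at 369 CPM, while 4 M at 84 h was as low as 1 M at 84 h (2.95 CPM).

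Among the abundant genes lower in 1 M, AG00699.1 had the largest difference in CPM, with 257 CPM in 1 M and 3677 CPM in 0 M (log2 fold change -3.84, interval -3.88 to -3.80). AG04122.1 followed with 368 CPM in 1 M and 3260 CPM in 0 M. It stood at 290 CPM in 1 M at 36 h and 458 CPM in 3 M at 84 h, and at 6.73 and 8.52 CPM in 3 M at 36 h and 4 M at 84 h. AG00751.1 was just past the threshold, with 606 CPM in 1 M, against 2433 CPM in 0 M. It was as abundant as in 0 M in 1 M at 36 h (2325 CPM) and in 3 M at 84 h (3144 CPM), and at 12.3 and 16.7 CPM in 3 M at 36 h and 4 M at 84 h. Its log2 fold change was -1.96 with DESeq2 size factors and -1.98 with TMM factors from the 2 libraries, both short of the 4-fold threshold, while TMM factors from all 6 libraries put it just beyond.

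AG08116.1 and AG03899.1 differed from these in where they were low. AG08116.1 had 204 CPM in 1 M and 1830 CPM in 0 M. At 36 h it was abundant in both salt concentrations (2036 CPM in 1 M and 1379 CPM in 3 M), and at 84 h it was low in 3 M (177 CPM) and 4 M (66.8 CPM). AG03899.1 had 153 CPM in 1 M and 1319 CPM in 0 M, and between 262 and 465 CPM in the other 4. All 5 of these genes were lower in 1 M than in 0 M at 84 h with log2 fold changes between -3.84 (AG00699.1) and that of AG00751.1 at the threshold.

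Runs of consecutive ID numbers were also found among the lower genes. Of the 135 lower genes whose next ID number was compared, 18 (13.3%) were followed by another lower gene, against 2.62% of all such compared IDs. There were 5 runs of 3 IDs, with 15 genes in all. The run with the largest mean fold was AG06012.1 to AG06014.1, with 89.7, 1.57 and 14.0 CPM in 1 M and 1103, 58.4 and 382 CPM in 0 M. Their log2 fold changes were -3.62, -5.12 and -4.75. Each of the 3 was lower still in all 4 other libraries, with at most 27.9 CPM for AG06012.1, 1.39 CPM for AG06013.1 and 2.84 CPM for AG06014.1. In 4 M at 84 h they stood at 1.11, 0.111 and 0.111 CPM. A second run, AG07928.1 to AG07930.1, was chosen for mention after its values were seen. It had 33.8, 33.5 and 81.4 CPM in 1 M and 427, 617 and 936 CPM in 0 M, and 3.01, 0.334 and 0.390 CPM in 4 M at 84 h. In 1 M at 36 h its genes stood at 309, 78.0 and 67.2 CPM. They were at 28.1, 5.62 and 13.8 CPM in 3 M at 36 h, and at 19.1, 5.18 and 22.3 CPM in 3 M at 84 h.

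**Figure D3:**
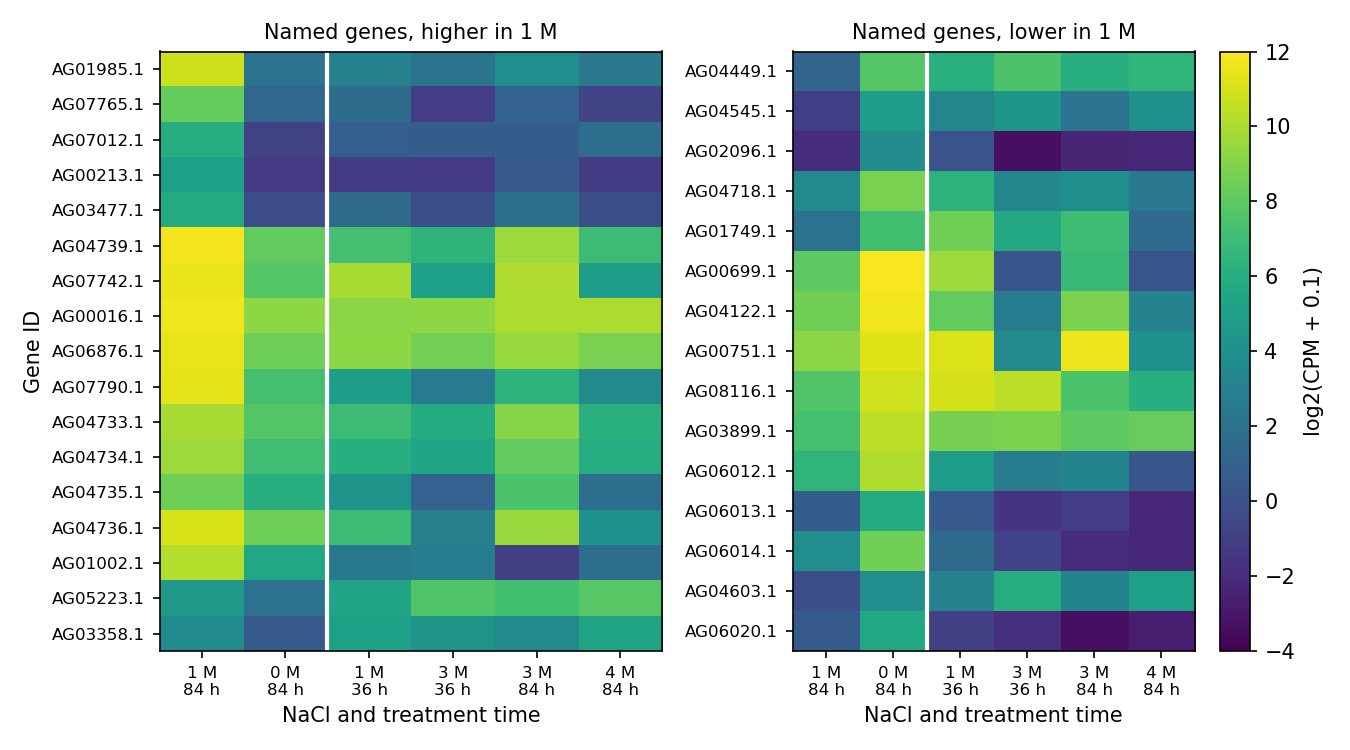
Levels of the named genes as log2(CPM + 0.1) (colour), 1 row per gene ID and 1 column per library, with 1 M and 0 M at 84 h left of the white line. The genes higher in 1 M (left panel) are brightest in the first column, with AG05223.1 and AG03358.1 as exceptions, while the genes lower in 1 M (right panel) differ in which other libraries are dark, as for AG04449.1 (67.0 to 187 CPM elsewhere) and AG06014.1 (at most 2.84 CPM elsewhere).

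The 4-fold genes were then followed through the other 4 libraries. Each library was placed on the 1 M side or the 0 M side of the midpoint between the log2 CPM in 1 M and in 0 M at 84 h. The genes were chosen on the 1 M and 0 M libraries, so that their levels elsewhere are likely to be less extreme, and the placement is a description. Of the 293 higher genes, 100 (34.1%) lay on the 1 M side in 1 M at 36 h, 46 (15.7%) in 3 M at 36 h, 72 (24.6%) in 3 M at 84 h and 62 (21.2%) in 4 M at 84 h. Over all 3098 compared genes with a higher value in 1 M, of whatever size, these shares were 35.6%, 30.0%, 47.8% and 40.1%. Of the 182 lower genes, 72 (39.6%), 81 (44.5%), 108 (59.3%) and 123 (67.6%) lay on the 1 M side in the same 4 libraries, against 46.0%, 34.9%, 51.6% and 36.6% of all 3331 genes with a lower value in 1 M. Here and below, shares over all genes of the same sign come mostly from small differences, with 75.9% of the genes compared within 2-fold. In such genes a small shift takes another library past the midpoint or either level. They are therefore not a matched background for the 4-fold genes. For the higher genes the share on the 1 M side was below that of all such genes in 3 M at both times and in 4 M, while in 1 M at 36 h it was about the same. For the lower genes it was above that of all such genes by most in 4 M at 84 h, and below it in 1 M at 36 h.

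Placement was also described by the median position, on a scale where 0 is the 0 M level and 1 the 1 M level at 84 h. It was not computed over all genes. For the higher genes it was 0.194 in 1 M at 36 h, -0.316 in 3 M at 36 h, 0.21 in 3 M at 84 h and -0.125 in 4 M at 84 h. For the lower genes it was 0.407, 0.416, 0.674 and 0.862. In 4 M at 84 h, 31 of the 293 higher genes (10.6%) were above their 1 M level and 161 (54.9%) below their 0 M level, beside 29.8% and 47.5% of all genes with a higher value in 1 M. Of the 182 lower genes, 85 (46.7%) were below even their 1 M level and 29 (15.9%) above their 0 M level, beside 28.5% and 53.0% of all genes with a lower value in 1 M. Either level is passed more easily where 1 M and 0 M differ little, as in most of the genes compared.

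**Figure D4:**
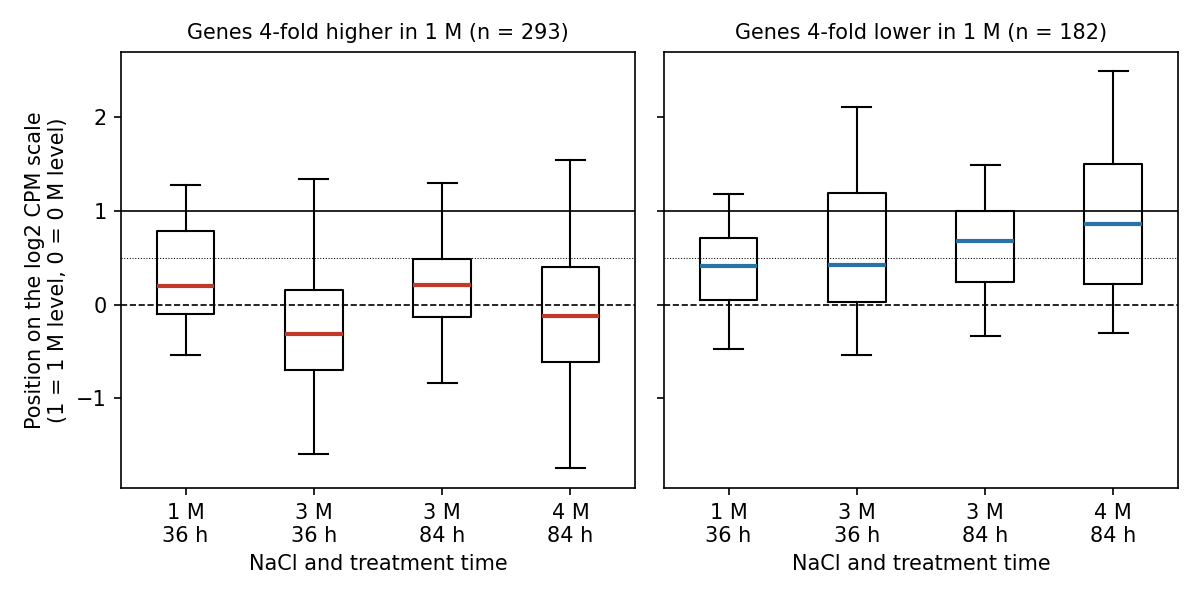
Position of the other 4 libraries between the 0 M level (0, dashed line) and the 1 M level (1, solid line) at 84 h on the log2 CPM scale, for the genes 4-fold higher (left) and lower (right) in 1 M. Boxes show the median and the interquartile range and whiskers the 5th to 95th percentile; the medians lie between -0.316 and 0.21 for the higher and between 0.407 and 0.862 for the lower genes.

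For 149 of the 293 higher genes (50.9%) all 4 other libraries lay on the 0 M side, so that 1 M at 84 h stood apart from the 5 other libraries. Over all 3098 genes with a higher value in 1 M this share was 28.1%. The 2 genes furthest from the nearest of the other 4 libraries were AG01985.1, described above, and AG01002.1. AG01002.1 had 1214 CPM in 1 M and 47.6 CPM in 0 M, and between 0.414 and 6.73 CPM in the other 4. A further 37 higher genes (12.6%) were on the 1 M side only in 1 M at 36 h, and 23 (7.85%) only in 3 M at 84 h. The share of all genes in these classes was not counted, so no excess is read from them. Without the 3 M libraries, 1 M at 84 h stood apart for 175 higher genes (59.7%, beside 41.9% of all genes with a higher value).

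For only 18 of the higher genes (6.14%) did all 4 other libraries lie on the 1 M side, which leaves 0 M as the library apart. The share over all genes with a higher value in 1 M was 10.6%. AG05223.1 was one of these, with 24.3 CPM in 1 M and 3.76 CPM in 0 M, 40.0 CPM in 1 M at 36 h, and 141 to 230 CPM in the other 3. AG03358.1 was another, with 13.3 CPM in 1 M and 1.33 CPM in 0 M, and between 12.5 and 41.3 CPM elsewhere. Without the 3 M libraries, 44 higher genes (15.0%) met this rule in place of 18, beside 17.6% of all genes with a higher value.

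Among the 182 lower genes the classes were more even. In 31 (17.0%) 1 M at 84 h stood apart, against 22.4% of all 3331 genes with a lower value in 1 M, and in 45 (24.7%) 0 M stood apart, against 12.8%. Without the 3 M libraries these counts were 45 (24.7%, beside 37.4% of all genes with a lower value) and 58 (31.9%, beside 20.0%). AG04449.1 and AG04603.1 were the furthest apart in the first class. AG04603.1 had 0.787 CPM in 1 M and 14.6 CPM in 0 M, and between 8.34 and 62.0 CPM elsewhere. In the second class the furthest were AG06014.1 and AG06020.1. AG06020.1 had 1.35 CPM in 1 M and 47.9 CPM in 0 M, no read in 3 M at 84 h, where 3 counts correspond to 0.155 CPM, and at most 0.405 CPM elsewhere. These IDs lie 6 numbers apart, and the 5 IDs between them (AG06015.1 to AG06019.1) were looked up after these values were seen. Of these 5, 4 were below 10 CPM in both libraries and were not compared, and AG06016.1 had 18.4 CPM in 1 M and 5.78 CPM in 0 M.

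The groups were also placed along the salt series at 84 h. In 189 of the 293 higher genes (64.5%) both 3 M and 4 M lay on the 0 M side, and in 30 (10.2%) both lay on the 1 M side. In 34 of the 182 lower genes (18.7%) both lay on the 0 M side, and in 83 (45.6%) both lay on the 1 M side. Counted in 4 M alone, without the 3 M library, 231 of the 293 higher and 59 of the 182 lower genes lay on the 0 M side. The rest, 21.2% of the higher and 67.6% of the lower genes, lay on the 1 M side. Over all genes with a higher and with a lower value in 1 M, 40.1% and 36.6% lay on that side. For 3 M and 4 M together, over all genes with a higher value in 1 M the shares were 37.6% and 25.5%, and over all genes with a lower value 36.1% and 24.3%. Levels followed the order of the 4 salt concentrations upwards throughout in 9 of the 293 higher genes (3.07%, beside 10.9% of all genes with a higher value in 1 M), and downwards throughout in 28 of the 182 lower genes (15.4%, beside 10.4% of all genes with a lower value). AG00699.1 was one of the 28, at 3677 CPM in 0 M, 257 CPM in 1 M, 112 CPM in 3 M and 1.00 CPM in 4 M.

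Comparisons among the other 4 libraries share no library with the one that chose the genes. All 293 higher and all 182 lower genes were kept in them, whatever their level, and set beside the 6429 genes compared. In 3 M against 1 M at 36 h, 10 of the 293 higher genes were at least 4-fold higher in 3 M and 112 (38.2%) at least 4-fold lower, beside 1.48% and 9.13% of all genes. Their median log2 fold change was -1.52, beside 0.01 for all genes. Of the 182 lower genes, 17 were 4-fold higher and 53 (29.1%) 4-fold lower in 3 M, with a median of -0.50.

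In 4 M against 3 M at 84 h, 32 of the higher genes were 4-fold higher in 4 M and 74 (25.3%) 4-fold lower, beside 1.9% and 9.35% of all genes. Their median was -0.99, beside 0.06 for all genes. Of the lower genes 12 were 4-fold higher and 53 (29.1%) 4-fold lower, with a median of -0.69. Between the 2 times in 3 M, 103 of the higher genes (35.2%) were 4-fold higher at 84 h than at 36 h and 20 were 4-fold lower, beside 8.32% and 3.13% of all genes, with a median of 1.37 (0.03 for all genes). Of the lower genes 25 were 4-fold higher and 33 4-fold lower at 84 h, with a median of -0.16. Both groups held larger shares of 4-fold genes than all genes did in each of these 3 comparisons and in both directions. However, fewer of their members reached 10 CPM in either library of a comparison. In 3 M against 1 M at 36 h, 204 of the 293 higher and 150 of the 182 lower genes did, against 6112 of all 6429. Whether the larger shares go with these lower levels was not tested. The comparison of times in 3 M shares a 3 M library with each of the others, so the 3 comparisons are not all independent of one another. Without the 3 M libraries, 4 M at 84 h can be set against 1 M at 36 h, which differ in both salt and time. There 14 of the higher genes were 4-fold higher in 4 M and 94 (32.1%) 4-fold lower, beside 1.85% and 10.8% of all genes, with a median of -0.87 (0.08 for all genes). Of the lower genes 4 were 4-fold higher and 75 (41.2%) 4-fold lower, with a median of -1.30.

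Last, each library was set against the other 5 over the 6745 genes that reached 10 CPM in at least 1 of the 6. The 1 M library at 84 h was the highest of the 6 for 1516 genes (22.5%) and the lowest for 1643 (24.4%). The values were similar for 4 M at 84 h (1508 and 1280 genes) and for 3 M at 36 h (1340 and 1340), and smaller for the remaining 3 libraries, with 820 and 774 genes for 0 M. In 95 genes the 1 M library at 84 h was at least 4-fold above all 5 others, which makes them part of the 293 higher genes by construction. In 16 genes it was at least 4-fold below all others, of which 13 are among the 182 lower genes. The 0 M library was 4-fold above all others in 35 genes and 4-fold below in 15, and the 4 M library was 4-fold above in 9 and below in 77. The other 3 libraries were 4-fold above all others in 3 to 25 genes. Without the 3 M libraries, the 1 M library at 84 h was 4-fold above the 3 others in 131 genes and 4-fold below in 22, of 6668 genes at 10 CPM. In that count the 4 M library at 84 h was above in 96 and below in 490, the 1 M library at 36 h above in 53 and below in 3, and the 0 M library above in 43 and below in 39. The numbers for 4 M among 6 libraries, 9 above and 77 below, thus depended on the 3 M libraries.

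**Figure D5:**
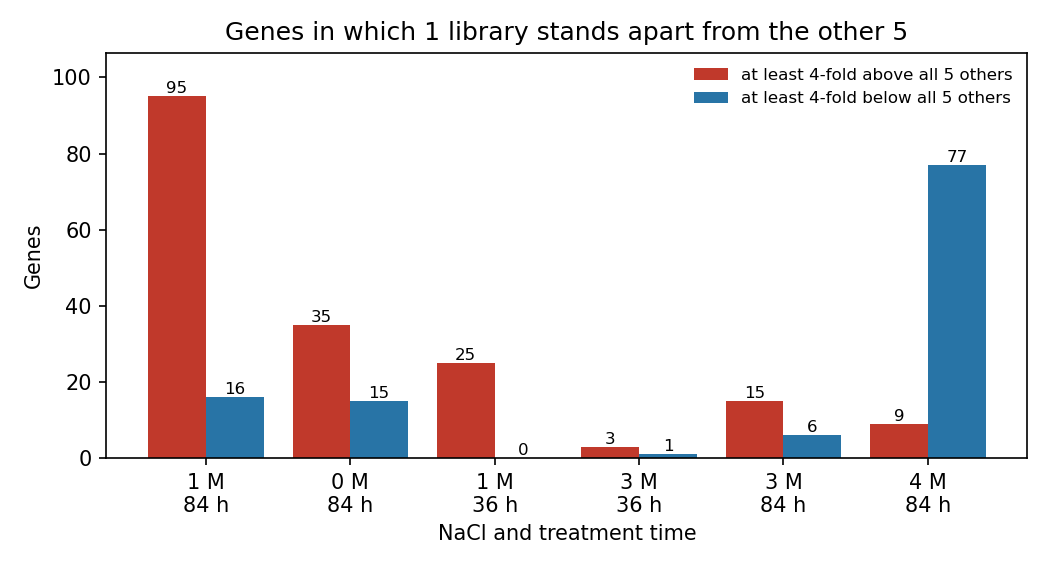
Number of genes (bars from 0) in which a library was at least 4-fold above (red) or at least 4-fold below (blue) all 5 others, of 6745 genes at 10 CPM or more in any library. The 1 M library at 84 h has 95 genes above and 16 below; the 4 M library at 84 h has 9 above and 77 below.

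At the edge of the 4-fold rule, the higher genes just inside were AG00156.1, with 20.5 CPM in 1 M and 5.03 CPM in 0 M, and AG06277.1, with 38.6 CPM in 1 M and 9.54 CPM in 0 M. Just outside was AG03293.1, with 1387 CPM in 1 M and 348 CPM in 0 M (1.99). On the lower side AG08447.1 lay just inside, with 17.8 CPM in 1 M and 71.6 CPM in 0 M, and AG04125.1 just outside, with 48.3 CPM in 1 M and 192 CPM in 0 M.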

How the data were processed

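The authors deposited unnormalized counts of reads by gene ID, in a separate file for each library. The submitters' processing notes list TopHat2 2.0.8b and HTSeq 0.5.4p2. The reference genome, gene models, strandedness and filters are not given there. IDs absent from a file were set to 0 counts. Reads of near-identical or overlapping genes may have been split or shared, which the IDs alone cannot show.

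TMM factors computed on the 6 libraries together set the scale (edgeR 4.0.16, R 4.3.3). Log2 CPM used a prior count of 2. A gene was compared with at least 10 CPM in 1 of the 2 libraries, and called by size, at least 4-fold. With 1 library per condition there is no p-value; ratios carry exact 95% counting intervals (SciPy 1.17.1). The 4-fold rule was checked on simulated counts. These held counting noise only, with no spread between cultures, so the check does not bear on differences between cultures. The depth of the libraries is given with the results.

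The members, lists and rules were chosen with earlier results of these data known. Named genes are, in each direction, the 5 largest by fold, the 5 largest by difference in CPM, the longest run of consecutive IDs (ties by mean fold) and the 2 furthest apart in each class of placement, with counting intervals beyond 2-fold; those at the edge of the 4-fold rule are named as such. A list of osmostress and glycerol genes and one of conidiation and fruiting body genes were without matching IDs, so neither has a result. Alternatives were DESeq2 (1.42.0) size factors, total counts, TMM factors of the 2 libraries, other filters, a prior count of 0.5, intervals beyond 4-fold and a 2-fold rule for standing apart. Counts and a comparison without the 3 M libraries, the other comparisons under other scalings and the difference in counts over filtered genes were added after seeing the data.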

Additional observations from a re-analysis of the deposited data

How the results depend on the processing

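Of the 109 recomputed counts and shares that answer a comparison, 94 stayed within 1.5 times of the reported value (for the share of counts that differs, within 0.1 percentage points). With no filter on low counts, 280 genes were 4-fold lower in 1 M, 26 lower genes lay in runs of 3 or more IDs, 0 M stood apart for 29 higher genes and 1 M for 49 lower genes. With a minimum of 50 CPM, which tests fewer genes, 183 genes were 4-fold higher and 99 lower, runs held 4 higher and 6 lower genes, 0 M stood apart for 7 higher and 27 lower genes, and 1 M for 15 lower genes. Runs held 4 higher genes with total counts, and 4 higher and 9 lower genes with counting intervals beyond 4-fold. Without the 3 M libraries 0 M stood apart for 44 higher genes. The fewer libraries and genes are part of these settings; beyond that, the cause was not tested. The number of higher genes for which 1 M stood apart, 149, lay between 107 and 175 in all settings run. Of the 156 other recomputed values (shares of counts of the 4-fold genes and log2 fold changes of named genes), 48 moved beyond counting error. None (0) changed sign, but this is no check. Shares cannot change sign, and the named genes were chosen to be at least 4-fold apart. Total counts moved the named genes by -0.11 to -0.08 on the log2 scale, and a prior count of 0.5 by -0.51 to 0.34. TMM factors of the 2 libraries give no scale for the other 4, so standing apart was not recomputed with them. Leaving out a library ends the comparison, since each side has 1. No paired analysis was possible because each condition has 1 library and the labels give no replicate numbers. Depth limits genes near the floor: 3 counts correspond to 0.169 CPM in 1 M and 0.173 CPM in 0 M.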
